A study of Homo sapiens with 4 samples.

Results

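Translation initiation factors are the proteins that bring the small ribosomal subunit, the initiator tRNA and the capped end of a messenger RNA together at a start codon. Their messages were examined in 4 RNA-seq libraries of human ovarian cancer cell cultures. The members were the gene symbols that begin with EIF and a digit from 1 to 6, without the EIF2AK kinases, symbols with a hyphen and pseudogene symbols. The count tables hold 52402 symbols, of which 140 began in this way, and 51 were members after 4 kinases, 3 hyphenated symbols and 82 pseudogene symbols were left out. EIF4EBP1, EIF4EBP2 and EIF4EBP3 end in the letter P and a digit as pseudogenes do, but they encode eIF4E-binding proteins and were kept. EIF1AY lies on the Y chromosome and was left out of all values, which leaves 50 genes: 3 of eIF2, 5 of eIF2B, 14 of eIF3, 16 of the eIF4 group and 12 others.

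The groups were SKOV3 mock, SKOV3 HERV-K119 KO, OVCAR3 mock and OVCAR3 HERV-K119 KO, with 1 library each. HERV-K119 is an endogenous retrovirus, a viral genome inherited as part of the human one, and the knockout of its env (envelope) gene was made with CRISPR-Cas9. Cells of all 4 groups, mock included, received 100 μg/mL hygromycin for 2 days, starting about 18 h after transfection. Whether the knockout cells were a clone or a pool is not given in the sources used here, and RNA of the edited locus was not analysed here. The design compares KO with mock cells within each line.

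Total counts ran from 15145483 to 22057693 per library, and the 50 genes took between 1.17% and 1.92% of them. The OVCAR3 KO library stood apart: mitochondrially encoded rows took 21.9% of its counts, against 5.16% to 5.93% in the others. Messages of 6 epithelial marker genes summed to 5564 and 5170 CPM (counts scaled to library size) in SKOV3 mock and KO, and to 7615 and 2094 CPM in OVCAR3 mock and KO. Most of the sum came from keratins: KRT8, KRT18 and KRT19 had 3035, 1460 and 2378 CPM in OVCAR3 mock. EPCAM changed little, with 315 and 268 CPM in OVCAR3 mock and KO. The 5 others were past 2-fold lower there, beside 18.1% of protein-coding genes. The leukocyte marker PTPRC was listed at 0 in all 4 libraries. The part of these differences in the values below was not tested. For CDKN2A, a gene that SKOV3 is known to lack, 90.6 and 91.2 CPM were measured in the mock and KO libraries labelled SKOV3, so line names below are labels of libraries. The other line markers looked at had, in SKOV3 mock and OVCAR3 mock, 58.5 and 73.3 CPM for ERBB2, 4.74 and 8.83 for PAX8 and 0.044 and 2.74 for MUC16. WT1 was listed at 0 in all 4 libraries. In bulk samples, fewer cells of a type and less RNA per cell cannot be told apart.

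Initiation starts with eIF2, a trimer that carries the initiator tRNA as a complex with GTP. The exchange factor eIF2B recharges it, and phosphorylation of the alpha subunit by stress kinases blocks that exchange. A large scaffold, eIF3, binds the small subunit, and eIF4F, made of the cap-binding protein eIF4E, the scaffold eIF4G and the helicase eIF4A, loads it onto the message. The 4E-binding proteins hold eIF4E away from eIF4G until the kinase mTOR phosphorylates them. Many messages of the translation machinery begin with a C followed by a run of pyrimidines, the 5′ terminal oligopyrimidine motif, through which mTOR and LARP1 control their translation.

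The starts of the genes were read from RefSeq promoter windows of GRCh38.p14, which held 42 of the 50 genes. A start was counted as pyrimidine-rich where its first base was C and at least 5 bases in a row from it were C or T. In 9 of the 42 genes at least 1 annotated start met this rule, as did 5.14% of all 27305 symbols in the table. They are EIF2A, EIF2D, EIF2S3, EIF3D, EIF3F, EIF3K, EIF3M, EIF4A2 and EIF4B. The helicase paralogs EIF4A1 and EIF4A2 differ in this respect. The windows below show 15 bases before and 15 bases from the annotated start, with the run of C and T from the start in capitals, for both paralogs and, of the other pyrimidine-start genes, for 2 with the lowest and 2 with the highest KO/mock ratio in OVCAR3.
EIF4A1 (chr17:7572810-7572839, plus strand): aggcgggcactccgcCCTagtttctaagga
EIF4A2 (chr3:186783562-186783591, plus strand): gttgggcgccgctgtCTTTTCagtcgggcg
EIF3F (chr11:7987322-7987351, plus strand): ttccgcttccgcctcCTTCTTTCTCgacaa
EIF3D (chr22:36529152-36529181, minus strand): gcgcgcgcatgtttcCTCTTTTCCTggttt
EIF2A (chr3:150546772-150546801, plus strand): tcacccgagcggtttCTCTTTCCgggacaa
EIF3M (chr11:32583816-32583845, plus strand): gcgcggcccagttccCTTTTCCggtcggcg

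Levels are given in CPM with TMM-scaled library sizes, and differences as log2 ratios, KO over mock, computed with a prior of 2 counts. Brackets give the exact 95% counting interval (from Clopper-Pearson bounds), which covers counting error only. Genes are called higher or lower where the log2 ratio is past 1 (2-fold) and 1 library of the pair has at least 1 CPM. Each group being a single library, ratios within a line have no replicates and no p-value. Of the 50 genes 47 reached 1 CPM in each pair. EIF3K, a subunit of eIF3, stood in 2 rows of the tables and was listed at 0 in every library, and EIF4E1B and EIF4EBP3 stayed under 1 CPM. The 0 of EIF3K may come from the counting step, which was not tested, and is not read as absence of its message.

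In the SKOV3 pair the messages of initiation factors were close between knockout and mock. None of the 47 genes was called higher, against 0.799% of all 13524 measured genes and 0.607% of the 12018 protein-coding ones. None was lower, against 0.739% and 0.333%. All 47 ratios lay within 1.5-fold, from -0.31 to 0.30, with a median of -0.03 beside 0.01 over all measured genes. Counting intervals lay above 0 for 13 genes, below 0 for 18 and across 0 for 16. The same counts over all measured genes were not made.

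In the OVCAR3 pair 9 of 47 genes were called lower, 19.1%, and none was called higher. Over all 15560 measured genes 15.4% were lower and 22.5% higher, and over the 12723 measured protein-coding genes 18.1% were lower and 13.0% higher. The share of lower genes was thus near that of protein-coding genes. The 9 genes were EIF4G1, EIF3B, EIF5A, EIF5AL1, EIF1, EIF3C, EIF3F, EIF2B4 and EIF3CL. Of these EIF3CL reached 1 CPM in the OVCAR3 mock library alone, and its counting interval spanned 0. The median over the 47 genes was -0.33, beside 0.16 over all measured genes and -0.02 over protein-coding ones. The ratios ran from -2.37 to 0.57.

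**Figure D1:**
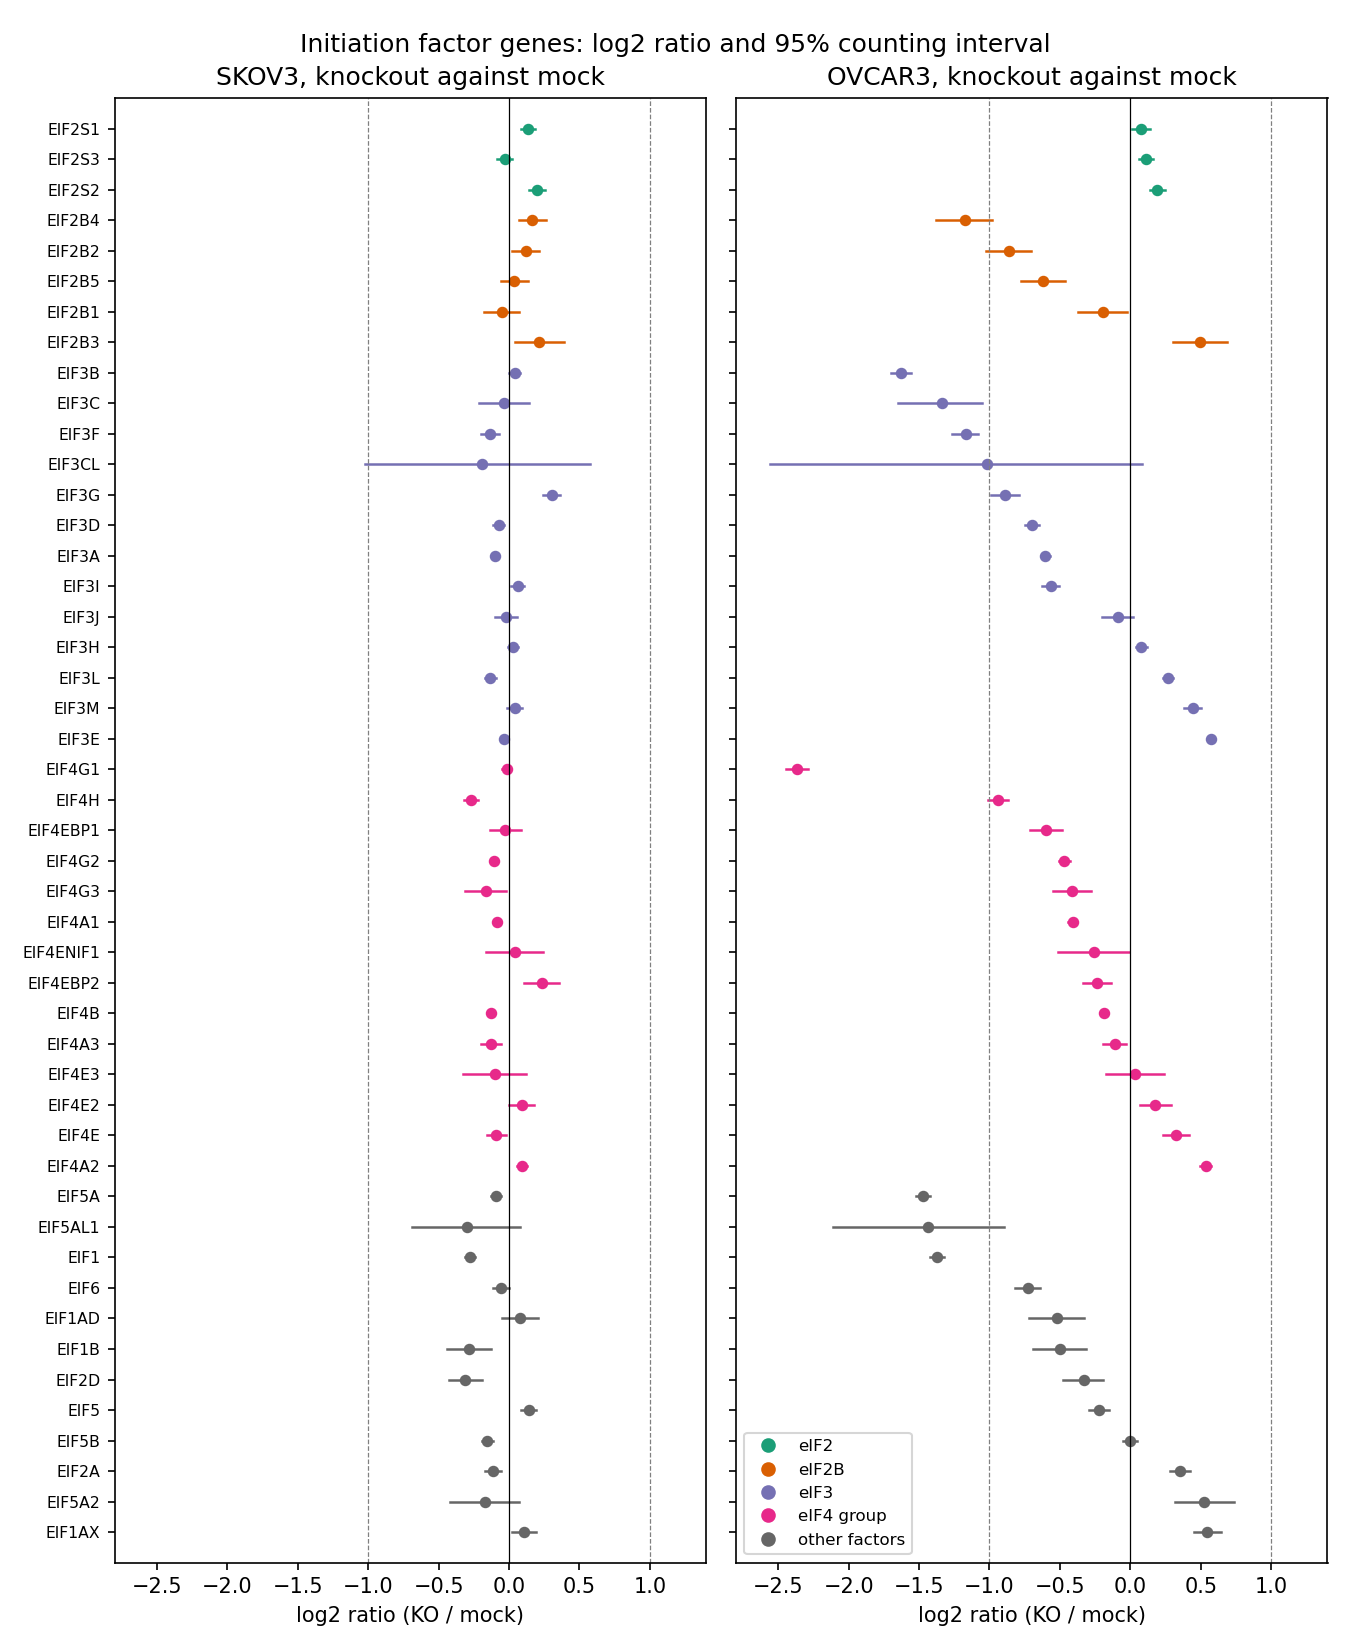
Log2 ratio of knockout over mock (x axis) of the 47 measured initiation factor genes in the SKOV3 pair (left) and the OVCAR3 pair (right), grouped and coloured by complex, with bars for the 95% counting interval and dashed lines at 2-fold. SKOV3 ratios stay between -0.31 and 0.30, and OVCAR3 ratios run from -2.37 for EIF4G1 to 0.57 for EIF3E.

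The OVCAR3 ratios went with the base composition of the transcripts. GC content of the longest coding GENCODE 29 transcript ran from 34.3% in EIF5A2 to 65.5% in EIF4EBP1. Across the 47 genes its Spearman correlation with the OVCAR3 ratio was -0.70, against 0.06 with the SKOV3 ratio. Genes are not independent replicates, and all points of a pair share the same libraries. Over 12678 protein-coding genes the correlation in OVCAR3 was -0.42. The 23 genes with GC content under the median of 46.0% had a median ratio of 0.04 with 2 called lower, and the 24 others -0.61 with 7 called lower. Over protein-coding genes of any GC content 18.1% were called lower. OVCAR3 ratios are therefore also given as the distance from the trend that protein-coding genes follow with GC content and transcript length. With it removed, 42 of 47 genes were below 0, and the median was -0.44 beside -0.088 over protein-coding genes. The share of protein-coding genes below 0 on this scale was not computed. Past 2-fold lower were 7 genes, beside 12.0% of 12678 protein-coding genes, and none was higher, beside 11.9%. The 7 were EIF4G1, EIF3F, EIF1, EIF5AL1, EIF1B, EIF5A and EIF3B, so EIF1B entered and EIF2B4, EIF3C and EIF3CL left.

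**Figure D2:**
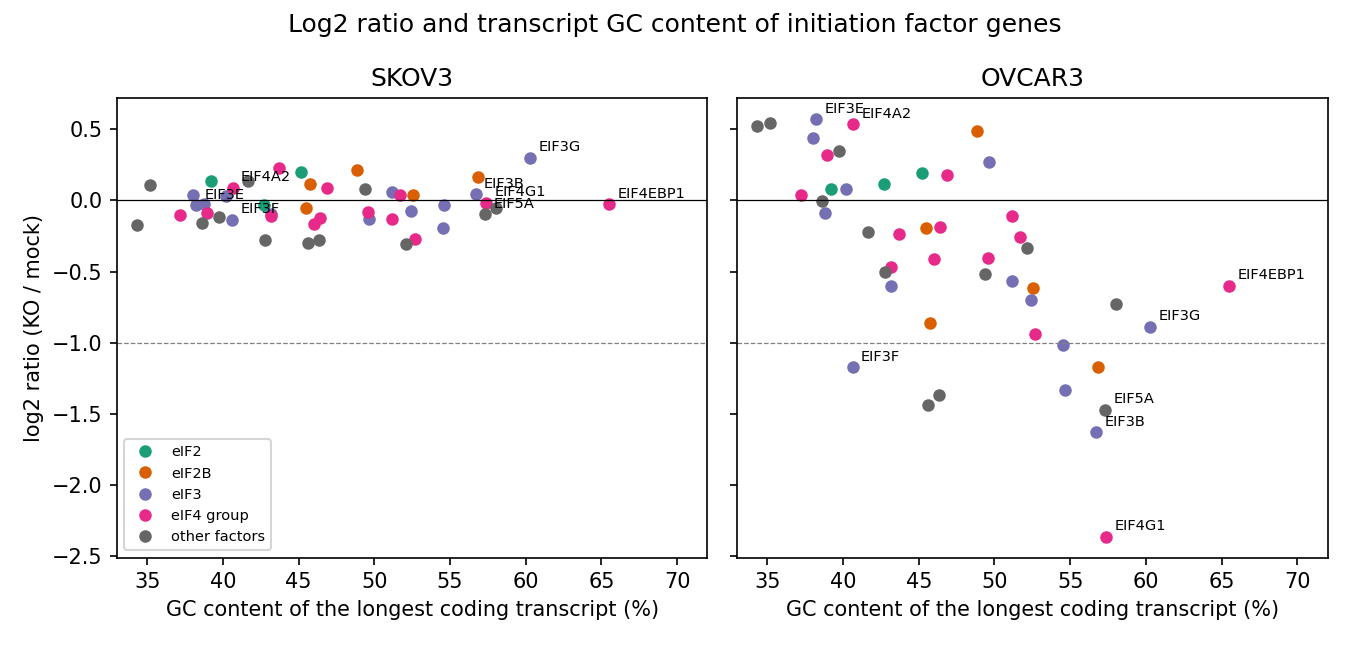
Log2 ratio of knockout over mock (y axis) against GC content of the longest coding transcript (x axis, %) for the 47 measured genes, SKOV3 left and OVCAR3 right, coloured by complex, with a dashed line at 2-fold lower. OVCAR3 ratios are lower at higher GC content (Spearman correlation -0.70), and SKOV3 ratios are not (0.06). EIF3F lies low in OVCAR3 at the low GC content of its longest coding transcript, which need not be the one expressed.

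The 3 eIF2 genes lay near mock in both lines. EIF2S1, the alpha subunit that the stress kinases phosphorylate, had 327 CPM in SKOV3 mock, 359 in SKOV3 KO, 232 in OVCAR3 mock and 244 in OVCAR3 KO. EIF2S2, the beta subunit, had 278 and 320 CPM in SKOV3 mock and KO and 350 and 400 CPM in OVCAR3 mock and KO. EIF2S3, the gamma subunit that binds GTP and the tRNA, had 336 and 328 CPM in SKOV3 and 397 and 429 CPM in OVCAR3. All stood within 1.5-fold of mock, with log2 ratios of 0.13 (0.08 to 0.18), 0.20 (0.15 to 0.25) and -0.03 (-0.08 to 0.02) in SKOV3. In OVCAR3 they were 0.08 (0.01 to 0.14), 0.19 (0.14 to 0.24) and 0.11 (0.06 to 0.16). The OVCAR3 median of eIF2 was 0.11 and turned to -0.0018 with no scaling factor, -0.18 with TMM over all symbols and -0.19 with the GC and length trend removed.

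The 5 eIF2B genes had a median of 0.12 in SKOV3 and -0.62 in OVCAR3, or -0.37 there with the trend removed. The difference from eIF2 was not tested. EIF2B4, a regulatory subunit (delta), had 86.7 and 97.2 CPM in SKOV3 mock and KO and 44.3 and 19.6 CPM in OVCAR3 mock and KO. Its ratio was 0.16 (0.07 to 0.26) in SKOV3 and -1.17 (-1.38 to -0.98) in OVCAR3. With the trend removed the latter was -0.83, under 2-fold. EIF2B2 and EIF2B5, encoding the beta and the catalytic epsilon subunit, had -0.86 (-1.02 to -0.70) and -0.62 (-0.78 to -0.46) in OVCAR3. EIF2B1, encoding the alpha subunit, was nearer to mock at -0.20 (-0.37 to -0.02). EIF2B3, encoding the gamma subunit, went the other way, with 27.0 and 31.3 CPM in SKOV3 and 24.1 and 33.9 CPM in OVCAR3, ratios of 0.21 (0.04 to 0.39) and 0.49 (0.30 to 0.69), the latter 0.46 with the trend removed. The spread of the 5 ratios in OVCAR3, from -1.17 to 0.49, was wider than in SKOV3, from -0.05 to 0.21. Measured genes in general spread more in OVCAR3 too: 22.5% were past 2-fold higher and 15.4% lower, against 0.799% and 0.739% in SKOV3.

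The eIF3 genes spread more widely in OVCAR3 than in SKOV3, as measured genes did in general. Of 13 measured genes 4 were called lower in OVCAR3, beside 18.1% of protein-coding genes. The OVCAR3 median was -0.60, and the ratios ran from -1.63 to 0.57. In SKOV3 the median was -0.03 and the range -0.19 to 0.30. EIF3B (chromosome 7, 2354086 to 2380745), a core scaffold subunit, had 559 and 576 CPM in SKOV3 mock and KO and 459 and 149 CPM in OVCAR3 mock and KO. The OVCAR3 KO level was the only one of the 4 that stood apart, 3.09-fold below its mock, a log2 ratio of -1.63 (-1.70 to -1.56) or -1.15 with the trend removed. EIF3C, another core subunit, had -1.34 (-1.65 to -1.05), or -0.94 with the trend removed, on 366 and 129 counts in OVCAR3 mock and KO. Its near-identical copy EIF3CL shares reads with it and had only 20 and 8 counts, reached 1 CPM in OVCAR3 in the mock library alone, and had an interval across 0 (-2.56 to 0.08), though it counts among the genes called lower. Both are uncertain one by one, and their sum, at 23.5 and 9.30 CPM in OVCAR3 mock and KO, had a ratio of -1.34. In SKOV3 mock the sum was 30.7 CPM, far below the 559 CPM of EIF3B, a core subunit with a transcript of similar length. Whether reads that match both copies were counted is not known, so the sum may miss most of them. The ratios of EIF3C and EIF3CL then rest on the remaining reads.

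EIF3F, a subunit with an MPN domain, had 213 and 194 CPM in SKOV3 and 207 and 92.1 CPM in OVCAR3. Its OVCAR3 ratio was -1.17 (-1.26 to -1.08), or -1.48 with the trend removed, at a GC content of 40.6%. This GC content is that of its longest coding transcript, of 7540 bases, which need not be the one expressed. The value with the trend removed depends on that choice. EIF3G, a subunit with an RNA-binding domain, had 210 and 258 CPM in SKOV3 and 156 and 84.1 CPM in OVCAR3. It held the highest SKOV3 ratio of all 47 genes, 0.30 (0.24 to 0.36), and -0.89 (-0.99 to -0.79) in OVCAR3. EIF3A, EIF3D and EIF3I lay between -0.70 and -0.57 in OVCAR3. At the other end EIF3E, a subunit of the PCI-domain ring, had 1437 and 1404 CPM in SKOV3 and 909 and 1353 CPM in OVCAR3. Its OVCAR3 ratio of 0.57 (0.54 to 0.60) was the highest of the 47 genes, and turned to -0.25 with the trend removed. EIF3H, EIF3L and EIF3M had 0.08, 0.27 and 0.44 in OVCAR3, of which EIF3L, at 0.43, was above 0 with the trend removed and EIF3H and EIF3M, at -0.33 and -0.05, were not.

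After these values were seen, the eIF3 genes were set apart by module. EIF3A, EIF3B, EIF3C, EIF3G and EIF3I, whose products also make up the eIF3 of budding yeast, all had OVCAR3 ratios below 0, from -1.63 to -0.57 with a median of -0.89. The 7 others without EIF3CL and EIF3K had a median of 0.08, with 4 above 0. In SKOV3 the medians were 0.04 and -0.03. Of 12723 measured protein-coding genes 6441 were below 0 in OVCAR3 and 6282 above. EIF3C in the first module rests on uncertain counts, as given above. The median GC content was 54.6% in the first and 40.2% in the second, and with the trend removed the OVCAR3 medians were -0.73 and -0.33.

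In the eIF4 group the scaffold gene EIF4G1 stood apart. EIF4G1 (chromosome 3, 184314606 to 184335358) had 829 CPM in SKOV3 mock, 820 in SKOV3 KO, 594 in OVCAR3 mock and 115 in OVCAR3 KO. The first 3 libraries lay within 1.5-fold of each other, and the OVCAR3 KO library was 5.16-fold below its mock, at 1698 counts against 9766. The log2 ratio was -2.37 (-2.44 to -2.29) there, the lowest of the 47 genes and at percentile 1.24 of measured protein-coding genes, and -0.02 (-0.05 to 0.02) in SKOV3. With the GC and length trend removed it was -1.75. EIF4G3, a paralog that also binds eIF4E, had -0.41 (-0.55 to -0.28) in OVCAR3, and EIF4G2, a relative without the eIF4E-binding part, had -0.47 (-0.51 to -0.43).

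The helicase paralogs went apart in OVCAR3. EIF4A1, the main eIF4A gene in dividing cells, had 2429 and 2292 CPM in SKOV3 mock and KO and 1269 and 956 CPM in OVCAR3 mock and KO, with ratios of -0.08 (-0.10 to -0.06) and -0.41 (-0.44 to -0.38). EIF4A2 had 651 and 693 CPM in SKOV3 and 557 and 807 CPM in OVCAR3, with ratios of 0.09 (0.05 to 0.13) and 0.54 (0.50 to 0.57). With the trend removed the OVCAR3 ratios were -0.44 for EIF4A1 and -0.04 for EIF4A2, a smaller gap in the same order. Per kb of the longest coding transcript, EIF4A1 made up 80.3% of the pair's summed level in SKOV3 mock, 78.3% in SKOV3 KO, 71.4% in OVCAR3 mock and 56.4% in OVCAR3 KO. The readthrough locus SENP3-EIF4A1 overlaps EIF4A1 and was called higher in SKOV3, with 3.94 and 9.51 CPM in mock and KO (log2 ratio 1.25, 0.88 to 1.67). In OVCAR3 it had 3.04 and 5.29 CPM, and adding it left the OVCAR3 ratio at -0.40. EIF4A3, a helicase of the exon junction complex rather than of initiation, had -0.13 and -0.11.

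**Figure D3:**
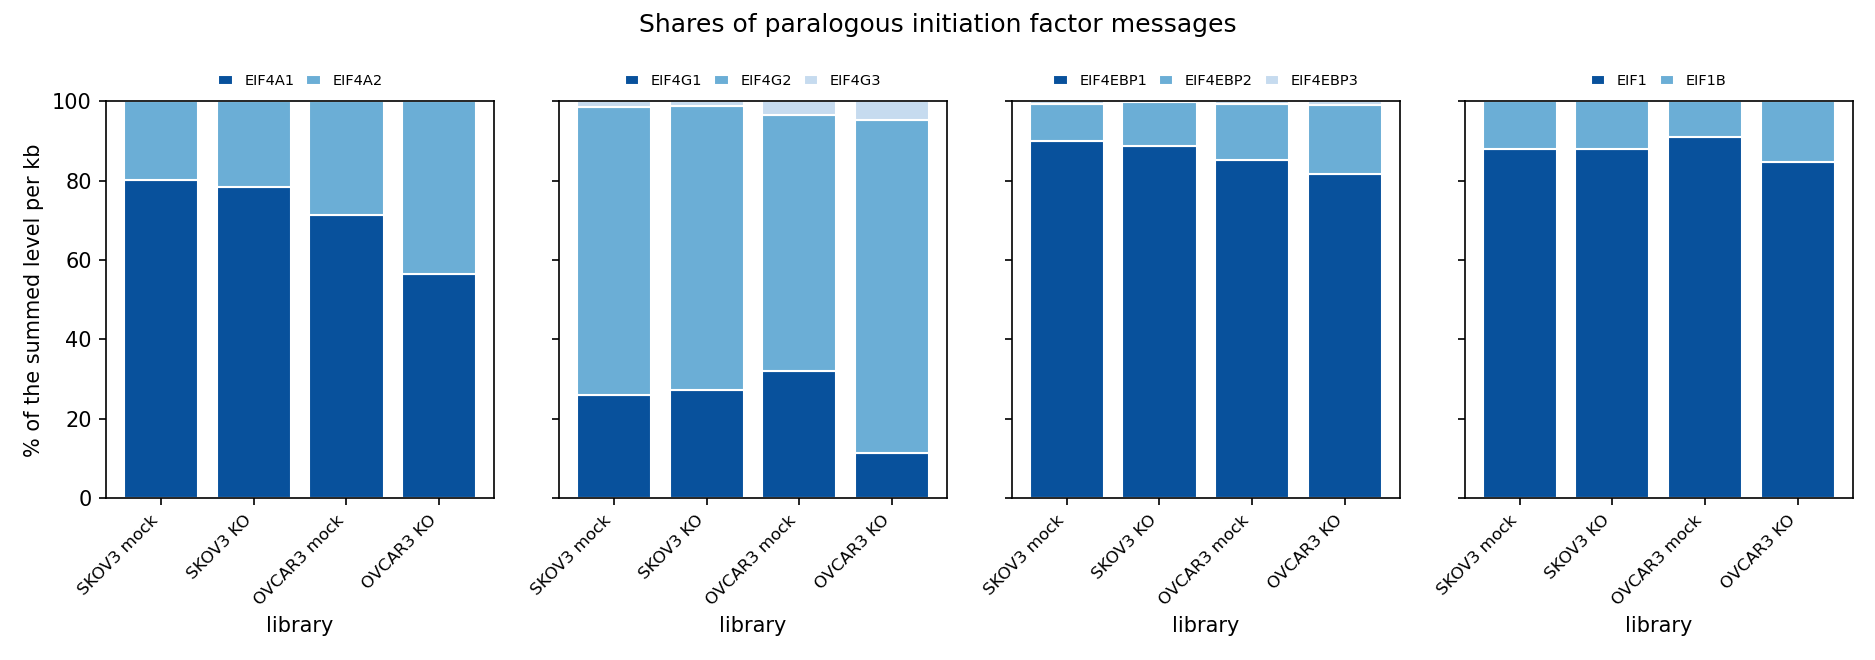
Share (y axis, %) of each paralog in the summed level per kb of longest coding transcript, in each of the 4 libraries (x axis), for EIF4A, EIF4G, EIF4EBP and EIF1 genes. EIF4A1 has 71.4% in OVCAR3 mock and 56.4% in OVCAR3 KO, EIF4G1 has 32.1% and 11.3%, and SKOV3 mock and KO are close.

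EIF4E, the cap-binding subunit, had 209 and 196 CPM in SKOV3 and 109 and 137 CPM in OVCAR3, ratios of -0.09 (-0.16 to -0.02) and 0.32 (0.23 to 0.42), the latter -0.16 with the trend removed. EIF4E2 and EIF4E3, cap-binding relatives, had 0.18 and 0.04 in OVCAR3. EIF4EBP1, an inhibitor of eIF4E, had 72.4 and 71.2 CPM in SKOV3 and 103 and 67.9 CPM in OVCAR3, with an OVCAR3 ratio of -0.60 (-0.72 to -0.49) that was -0.46 with the trend removed. EIF4EBP2, the second inhibitor, had 53.6 and 63.0 CPM in SKOV3 and 121 and 102 CPM in OVCAR3, with ratios of 0.23 (0.11 to 0.35) and -0.24 (-0.34 to -0.14). The helicase cofactor gene EIF4H had 423 and 351 CPM in SKOV3 and 320 and 167 CPM in OVCAR3, with ratios of -0.27 (-0.32 to -0.22) and -0.94 (-1.01 to -0.87), just under the size rule. EIF4B, encoding the other cofactor, was at -0.12 and -0.19, and EIF4ENIF1, encoding an eIF4E transporter, at 0.04 and -0.26.

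**Figure D4:**
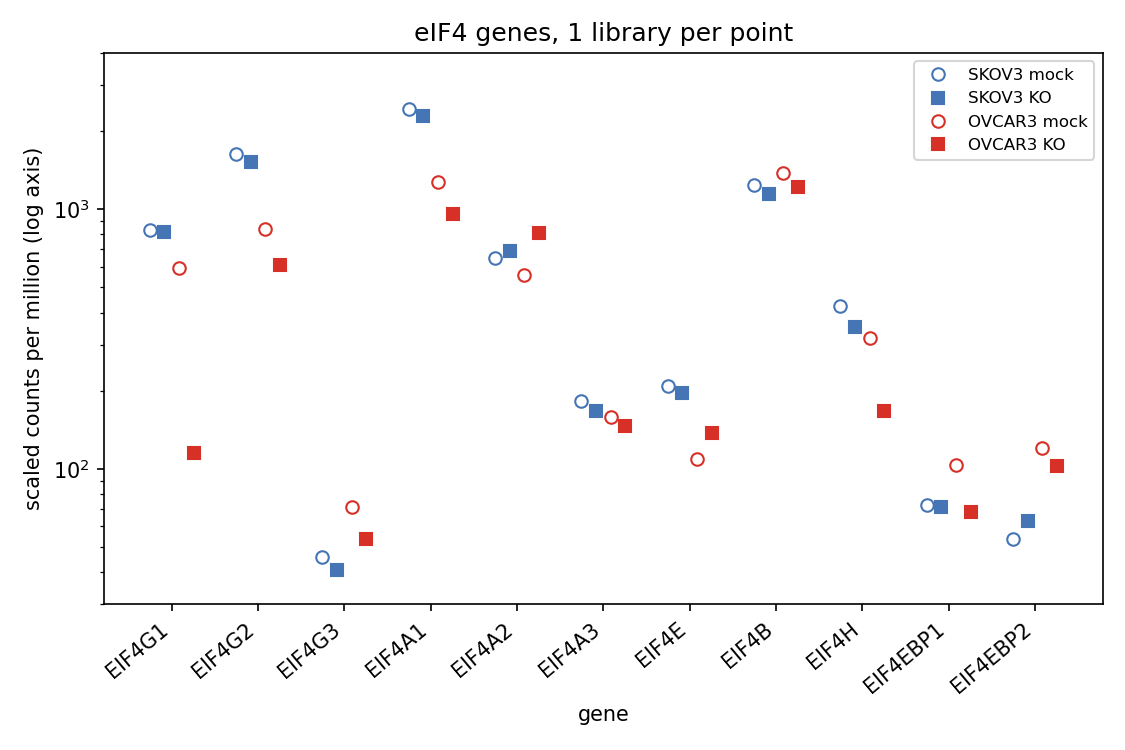
Levels in CPM (y axis, log scale) of 11 eIF4 genes (x axis) in SKOV3 (blue) and OVCAR3 (red), with open circles for mock and filled squares for knockout, 1 library per point. EIF4G1 in OVCAR3 KO, at 115, lies 5.16-fold below its mock, and EIF4A2 lies above its mock there.

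Of the 12 other factors 3 were called lower in OVCAR3, beside 18.1% of protein-coding genes: EIF1, EIF5A and its copy EIF5AL1. EIF1, the gatekeeper of start-codon selection, had 681 and 563 CPM in SKOV3 and 839 and 324 CPM in OVCAR3. Its ratios were -0.28 (-0.31 to -0.24) and -1.37 (-1.42 to -1.32), and -1.47 in OVCAR3 with the trend removed. Of the 9 genes called lower in OVCAR3, EIF1, EIF3F and EIF5A also had SKOV3 intervals below 0, with EIF1 the lowest of these. Its paralog EIF1B had -0.28 (-0.44 to -0.13) and -0.50 (-0.69 to -0.31), and -1.24 in OVCAR3 with the trend removed, past 2-fold. EIF5A, whose product carries the amino acid hypusine and acts in elongation as well, had 724 and 678 CPM in SKOV3 and 749 and 270 CPM in OVCAR3, with ratios of -0.09 (-0.13 to -0.06) and -1.47 (-1.52 to -1.42), or -1.22 with the trend removed. EIF5AL1, a near-identical copy of EIF5A, had 32 counts in OVCAR3 KO, can share its reads and is uncertain. EIF5A2, the divergent paralog, had 20.6 and 29.7 CPM in OVCAR3, a ratio of 0.53 (0.32 to 0.74) that was -0.14 with the trend removed.

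EIF6, which keeps the large ribosomal subunit from joining too early, had 274 and 264 CPM in SKOV3 and 180 and 109 CPM in OVCAR3, and ratios of -0.05 (-0.11 to 0.00) and -0.73 (-0.82 to -0.64). EIF5, the GTPase activator of eIF2, had 263 and 290 CPM in SKOV3 and 236 and 202 CPM in OVCAR3, and ratios of 0.14 (0.08 to 0.19) and -0.22 (-0.29 to -0.15). EIF5B, the GTPase of subunit joining, had 590 and 530 CPM in SKOV3 and 421 and 420 CPM in OVCAR3, and ratios of -0.16 (-0.20 to -0.12) and -0.0015 (-0.05 to 0.05). EIF1AX, which works beside EIF1, had 119 and 128 CPM in SKOV3 and 92.6 and 135 CPM in OVCAR3. Its ratios were 0.11 (0.02 to 0.19) and 0.55 (0.45 to 0.64), the latter -0.12 with the trend removed. EIF2A and EIF2D, which can deliver initiator tRNA without eIF2, had 0.35 and -0.33 in OVCAR3. EIF1AD had -0.52.

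The genes with a pyrimidine-rich start lay on both sides of 0. The 8 measured ones ran from -1.17 in EIF3F to 0.54 in EIF4A2 in OVCAR3, with a median of -0.04 and 1 called lower. The 31 measured genes with other annotated starts had a median of -0.41 with 7 called lower. Of all measured protein-coding genes 18.1% were called lower in OVCAR3, and the difference between the start groups was not tested. With the trend removed the medians were -0.19 and -0.47. In SKOV3 the medians were -0.09 and -0.03. On either strand of the 300-base windows, CCAAT was found in 19 of the 42 genes, against 39.7% of all symbols, and TGATGNAA, a form of the element bound by the stress factor ATF4, in 1, against 4.46%. These are matches of letters in windows around annotated starts, and no more.

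Over both lines no initiation factor passed the test. edgeR's quasi-likelihood test of knockout against mock, with the line as a block and 1 residual degree of freedom, called 0 of 13670 genes (0%) and 0 of the 47 tested members at an adjusted p of 0.05. The lowest adjusted p among members was 0.956, and 0 members and 140 of all genes had an unadjusted p under 0.05. In 3 alternatives 1 member did, EIF4G1 each time: edgeR without a filter on low counts (p 0.026, adjusted p 0.997), limma-voom (p 0.048, adjusted p 0.948) and DESeq2 (p 0.032, adjusted p 0.9996). The fitted log2 change of EIF4G1 was -1.19, and -0.61 in edgeR without the line as a block (p 0.47, adjusted p 0.9998). Counting intervals lay below 0 in both lines for 13 genes, among them EIF1, EIF3F, EIF4A1, EIF4H and EIF5A, and above 0 in both for 6, EIF1AX, EIF2B3, EIF2S1, EIF2S2, EIF4A2 and EIF4E2. These intervals hold no spread between cultures, and at high counts they clear 0 on small ratios, as for EIF4A1 in SKOV3 at -0.08. How many of all measured genes have such intervals in both lines was not computed.

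Between the mock libraries, initiation factors differed less than 2-fold with 1 exception. EIF4EBP2 was higher in OVCAR3 mock, at 121 against 53.6 CPM (log2 ratio 1.17), and 1 of 47 genes higher stands beside 9.47% of all 13721 measured genes. None was lower past 2-fold, against 5.52%. The median ratio of OVCAR3 mock over SKOV3 mock was -0.28, and 34 of 47 were below 0. Neither value was computed over all measured genes. EIF2B4, EIF4G2, EIF4A1 and EIF4E were lowest, at -0.97, -0.96, -0.94 and -0.93. These mock libraries also enter the knockout ratios.

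The neighbours of the initiation factors in the pathway were described from short lists, whose counts in OVCAR3 stand beside 18.1% of protein-coding genes lower and 13.0% higher. In SKOV3 no gene of these lists was called, beside under 1% of all genes in each direction. Of 10 regulators of eIF2 phosphorylation 2 were called lower in OVCAR3, near that share. PPP1R15A, the stress-induced subunit that directs a phosphatase to eIF2 alpha, had 240 and 225 CPM in SKOV3 and 296 and 36.5 CPM in OVCAR3, a ratio of -3.01 (-3.15 to -2.89) in the latter. GCN1, the activator of the kinase EIF2AK4, had -1.95 (-2.02 to -1.88). EIF2AK2, the kinase that senses double-stranded RNA, had the highest ratio of the list at 0.59 (0.49 to 0.68), or 0.12 with the trend removed, and EIF2AK1, EIF2AK3 and EIF2AK4 had -0.16, -0.08 and 0.06. In SKOV3 NCK1, an adaptor, was lowest at -0.33 (-0.53 to -0.14) and PPP1R15B, the constitutive phosphatase subunit, highest at 0.0031.

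Of 18 genes on the cap-binding and mTOR side 6 were called lower in OVCAR3 and none higher, beside 18.1% and 13.0% of protein-coding genes. They were MKNK2, a kinase of eIF4E, at -1.98 (-2.07 to -1.89), CYFIP1, an eIF4E-binding repressor, at -1.82 (-1.96 to -1.68), MTOR at -1.41 (-1.55 to -1.27) and its partner RPTOR at -1.34 (-1.49 to -1.20). The poly(A)-binding protein genes PABPC4 and PABPC1 were at -1.21 (-1.28 to -1.14) and -1.18 (-1.20 to -1.15), PABPC1 with 3071 and 1358 CPM in OVCAR3 mock and KO. The highest was RPS6KB1, the S6 kinase gene, at 0.58 (0.48 to 0.69). In SKOV3 this list ran from -0.36 in MKNK2 to 0.25 in NCBP1, a subunit of the nuclear cap-binding complex. With the trend removed, RPTOR (-0.64), PABPC4 (-0.88) and PABPC1 (-0.93) were under 2-fold in OVCAR3.

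Among 5 genes of scanning and recycling MCTS1, a reinitiation factor, was called higher in OVCAR3 at 1.01 (0.87 to 1.15), or 0.31 with the trend removed, and DHX29, a scanning helicase, was lowest at -0.23. In SKOV3 they ran from -0.18 in MCTS1 to 0.16 in DDX3X, a helicase. Among 9 measured elongation and release genes 2 were lower in OVCAR3, EEF2, the translocase, at -1.97 (-1.99 to -1.95) and EEF1A2, a tissue-restricted tRNA carrier, at -2.45 (-2.53 to -2.38). EEF1D, a nucleotide exchange subunit, was higher at 2.61 (2.40 to 2.85), with 190 counts in OVCAR3 mock and 1049 in OVCAR3 KO. EEF1B2 was listed at 0 in every library, which, as for EIF3K, may come from the counting step and is not read as absence. In SKOV3 that list ran from -0.35 in EEF1A1, the main tRNA carrier, to 0.33 in EEF1E1. The mitochondrial initiation factors MTIF2 and MTIF3 had 0.41 and 0.27 in OVCAR3 and 0.01 and -0.12 in SKOV3.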

How the data were processed

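Cultures labelled SKOV3 and OVCAR3, mock and HERV-K119 KO, gave 1 RNA-seq library each, made from Trizol-extracted total RNA with a directional NEBNext kit, per the labels' protocols. The authors deposited whole-number read counts for each gene symbol, not normalised. Per the submitters' processing notes TopHat and GRCh38 were used; which tool counted, with which annotation and strand setting, is not given in the sources used here, so reads of overlapping genes may be counted for either. Each table had 58173 rows, and rows of 1 symbol were summed. The groups come from the sample titles, and all 4 share the number 1, which pairs nothing.

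Effective library sizes used TMM factors (1.02, 1.04, 1.01 and 0.931 for SKOV3 mock, SKOV3 KO, OVCAR3 mock and OVCAR3 KO) over genes with at least 1 CPM in 2 libraries, in edgeR 4.0.16 with R 4.3.3. A count of 0 allows up to 3 counts, 0.136 to 0.198 CPM. Intervals come from the exact binomial split of the counts of a pair (scipy 1.17.1), and reads carry no molecular identifiers. edgeR's quasi-likelihood test over both lines used Benjamini-Hochberg adjustment, with DESeq2 1.42.0 and limma 3.58.1 as alternatives. Its p-values cover only the spread among these 4 libraries. With the line as a block, that spread is how far the KO/mock ratio differs between the lines, moderated over genes. It may be technical, and no spread between cultures of a line enters it. The test was tried on simulated counts of the 13670 genes, drawn at the dispersion trend of the fit (common dispersion 0.127). Where both lines shared the change, it recovered 0% of 200 changed genes at 2-fold, 55.5% at 4-fold and 98% at 16-fold. False calls were 0, 8 and 9 in the same order. The trend on GC content and transcript length was a spline with 5 degrees of freedom for each, fitted to measured protein-coding genes.

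Symbols were matched to RefSeq GRCh38.p14 (51 of 51 members) and GENCODE 29 (51 of 51). Levels per kb, GC content and the GC and length trend use the longest coding transcript, which need not be the one expressed. Named genes were each member past the size rule, the highest and lowest ratio of each complex and line at 5 CPM or more, and 13 further factors; in the neighbour lists, each gene past the rule and the highest and lowest. Members and lists were chosen with earlier results of these data known. The grouping of eIF3 by module, the pyrimidine groups' medians, remaining members given by value and TMM over all symbols were added after seeing the values.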

Additional observations from a re-analysis of the deposited data

Results flagged for a closer look

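In 11 genes the ratio of knockout over mock had opposite signs in the 2 lines with both counting intervals clear of 0. What share of all measured genes meets this rule was not computed. The difference between the lines was not tested, since each line holds 1 library per condition. In 7 genes the ratio was above 0 in SKOV3 and below 0 in OVCAR3: EIF3G at 0.30 and -0.89, EIF4EBP2 at 0.23 and -0.24, EIF2B4 at 0.16 and -1.17, EIF5 at 0.14 and -0.22, EIF2B2 at 0.12 and -0.86, EIF3I at 0.061 and -0.57, and EIF3B at 0.042 and -1.63. In 4 genes it was below 0 in SKOV3 and above 0 in OVCAR3: EIF3L at -0.13 and 0.27, EIF2A at -0.11 and 0.35, EIF4E at -0.090 and 0.32, and EIF3E at -0.034 and 0.57. All 11 SKOV3 ratios are small, and of the 4 OVCAR3 ratios above 0 only that of EIF3L stayed there with the GC and length trend removed. Groups of 1 library allow no check for a sample far from the others.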

How the results depend on the processing

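In SKOV3 all 26 counts of called genes under other settings were 0, and all 52 medians lay between the median lower and upper counting bounds of their genes. In OVCAR3, scaling moved every ratio alike, by -0.11 with no scaling factor and by -0.29 with TMM over all symbols (chosen after seeing the data). Above 0 were 15 of 47 genes as reported, and 11 and 8 under these. As reported, 6282 of 12723 measured protein-coding genes were above 0, and under the other scalings this was not computed. With no scaling factor the medians of eIF2 and eIF3 were -0.0018 and -0.72. With TMM over all symbols the medians were -0.62 over all members, -0.18 for eIF2, -0.91 for eIF2B, -0.89 for eIF3 and -0.54 for the eIF4 group, and 13 genes were called lower. With the GC and length trend removed they were -0.19 for eIF2 and -0.37 for eIF2B, and EIF2B4 (-0.83), EIF3C (-0.94) and EIF3CL (-0.64) were under 2-fold. With a prior count of 5 EIF3CL had -0.86. Without a filter 1 gene, EIF4E1B, was higher on 7 counts against 1. Called lower were 17 genes at 1.5-fold and 2 at 3-fold. Leaving out EIF4EBP1 to EIF4EBP3 left the counts at 9 and 0. Over both lines 0 members were called under each of the 8 alternatives, and over all genes 1 of 28739 was called without a filter and 0 in the other alternatives. The groups share a single replicate number, so no pairing beyond the line was possible. The fit over both lines has the line as its block, which sets knockout against mock within each line. Without the block 0 genes were called too. Leaving out a line leaves 1 library per condition and no residual degree of freedom.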

Other observations

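The 82 pseudogene symbols of initiation factors, which stand outside the comparisons, held counts in 39 cases and summed to 34.5 and 32.7 CPM in SKOV3 mock and KO and to 30.9 and 36.0 CPM in OVCAR3 mock and KO. The 50 genes themselves summed to 18783, 18108, 15250 and 12543 CPM in the same order. EIF3J-AS1, antisense to EIF3J, had 2.31 and 5.16 CPM in OVCAR3 mock and KO, a log2 ratio of 1.12 (0.58 to 1.76) past 2-fold, where EIF3J had 92.7 and 87.1.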
